A study of Mus musculus with 6 samples.

Results

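Semaphorins, plexins, Eph receptors and ephrins are cell-surface and secreted proteins through which neighbouring cells repel or attract each other. The genes described here were chosen by name, as all probe sets whose annotation gives a single symbol of the form Sema3 to Sema7, Plxna to Plxnd, Epha, Ephb, Efna or Efnb with its letter or number. The name pattern found 51 of the 18194 genes measured, on 116 of the 45101 probe sets of the array. They were 20 semaphorins, 9 plexins, 13 Eph receptors, 8 ephrins and Plxna4os1, an RNA antisense to a plexin gene that the pattern also matched. Where a gene had more than 1 probe set, the brightest over all arrays was read. All 51 genes are accounted for in the text.

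The arrays compared senescent with proliferating hepatic stellate cells, the liver pericytes that turn into matrix-producing myofibroblasts after injury, with 3 arrays in each group. All cells carried CMV-rtTA;TRE-GFP-shRNA.p53.1224 on a C57Bl/6 background, so that adding doxycycline induces GFP and a hairpin RNA that knocks down p53. The senescent group had the control treatment, so the hairpin was not induced, and the proliferating group had doxycycline at 1 ug/ml. Both grew in DMEM with 10% FBS. Growth state, p53 knockdown and doxycycline itself therefore went together and cannot be told apart. The labels name no separate animals or cultures for the replicates. The p-values therefore only set group differences against the spread among these arrays, moderated over all genes, and that spread may be technical.

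Semaphorins are the ligands of plexins. Most class 3 members are secreted and need a neuropilin beside the plexin, classes 4 to 6 span the membrane, and class 7 is anchored by a lipid. Plexins act on small GTPases and change the attachment of cells to matrix. Eph receptors are tyrosine kinases that bind ephrins on the neighbouring cell, and ephrins can signal back into their own cell. Ephrin-A proteins are lipid-anchored and ephrin-B proteins span the membrane. In hepatic stellate cells neuropilin 1, the co-receptor of several class 3 semaphorins, has been described as strengthening the response to PDGF, and in human cells EPHA2 has been described as inducible by p53.

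The deposited values are log2 expression per probe set. Array medians lay between 6.15 and 6.19, and arrays correlated at 0.995 to 0.997 within groups and 0.989 to 0.992 between them. Cdkn1a, the p53 target that blocks the cell cycle and the check of the p53 state, read 12.85, 12.63 and 12.86 on the senescent arrays, against 11.01, 11.03 and 11.10 on the proliferating arrays (change 1.74 ± 0.08, SE; adjusted p = 1.97e-05). The transcript that the hairpin targets was not analysed here. Of the 17 stellate and myofibroblast markers 10 lay above background on all arrays, among them Acta2 (14.57 in senescent and 14.45 in proliferating cells), and Lrat, Reln, Gfap and Lhx2, defining markers of quiescent stellate cells, lay below it on every array. In that list Timp1 rose by 0.76, and Col1a1, Col1a2, Col3a1, Pdgfrb, Hand2 and Colec11 fell, with Pdgfrb at 10.05 in senescent and 11.34 in proliferating cells, and the log2 of the summed signals was 16.87 to 16.88 on senescent arrays and 16.99 to 17.00 on proliferating arrays. All 5 mesothelial markers lay above background (sum 14.20 to 14.25 on senescent and 13.95 to 14.04 on proliferating arrays), of which Msln and Upk1b rose by 0.79 and 0.43, Wt1 fell by 1.11, and Upk3b and Krt8 did not pass. All 4 biliary markers did too (sum 11.30 to 11.45 on senescent and 10.97 to 11.03 on proliferating arrays), of which Krt19 rose by 0.58, Krt7 fell by 0.69 and Epcam and Sox9 did not pass. Of 7 macrophage markers Csf1r rose by 0.35, and the sum was 9.18 to 9.23 on senescent and 8.94 to 9.05 on proliferating arrays. Csf1r, Clec4f and Lyz2 lay above background on all arrays, and Cd68 on 3 senescent and 2 proliferating arrays. Ptprc, Adgre1 and Marco lay below it on all arrays. Of 7 endothelial markers 5 lay below background on all arrays, among them Pecam1, and Cdh5 rose, with means of 5.74 in senescent and 5.02 in proliferating cells and all proliferating arrays below background. The summed endothelial signal was 8.46 to 8.49 on senescent and 8.24 to 8.46 on proliferating arrays. Of 5 hepatocyte markers measured, Alb, Cps1 and Cyp2e1 lay below background on all arrays. Apoa1 and Ttr lay above it on all arrays, and none of the 5 passed. Of 6 neural and Schwann markers measured, Mbp, Tubb3, Sox10 and Rbfox3 lay above background on all arrays, and Snap25 lay below it. S100b lay above it on 2 senescent and 3 proliferating arrays, and none of the 6 passed. Of 4 lymphocyte markers measured, Cd3e lay above background on all arrays, the others lay below it, and none passed. The part of these markers in the results on the guidance genes was not tested. Background here means 5.57 log2 units, a level that 95% of 44 probe sets for olfactory receptors did not exceed in their means.

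Of the 51 genes, 6 rose and 11 fell in senescent cells relative to proliferating cells, and 34 did not pass the test. Passing means an adjusted p under 0.05 in a limma fit over all 18194 genes with Benjamini-Hochberg adjustment. Epha2, Epha4, Plxna1, Plxna2, Efna3 and Efnb2 rose. Epha3, Epha7, Ephb3, Sema3e, Sema4c, Sema4d, Sema4g, Sema6d, Plxna3, Plxnd1 and Efna2 fell. The 6 genes that rose were 11.8% of the members, beside 9.49% of all genes tested. The 11 that fell were 21.6%, beside 10.5% of all genes. In either direction 33.3% of the members passed, against 20.0% of all genes. The median change of the members was -0.10 log2 units, beside -0.0018 over all genes, and these shares describe the list and carry no test. In bulk samples such as these, fewer cells of a type and less RNA per cell cannot be told apart.

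The level of the genes was read beside these counts. Of the 51, 38 lay above background on all 6 arrays, 10 lay below it on all 6 and 3 on some arrays. Markers of other cell types also lay above it on all arrays, such as Cd3e (6.13 in senescent and 6.07 in proliferating cells) and Sox10 (7.07 and 7.19). For members at such values this level alone may not separate expression from unspecific signal. Among genes whose mean over the arrays lay above background, 17 of 40 members (42.5%) and 27.4% of 12501 genes passed. The sizes of the changes that passed are given as a description. A change of at least 1.5-fold was seen in 10 of the 17, or 58.8%, beside 32.5% of all genes that passed, and at least 2-fold in 4, or 23.5%, beside 9.77%. Those 4 were Epha3, Epha7, Sema6d and Epha2, of which only Epha2 was higher in senescent cells. With the mean of all probe sets of a gene, Epha3 (-0.99), Epha7 (-0.97) and Sema6d (-0.39) changed by less than 2-fold.

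By array, all 3 senescent values lay above all 3 proliferating values in 6 members (11.8%), against 17.4% of all genes. All 3 lay below in 15 members (29.4%), against 19.6% of all genes. The 6 were the genes that rose. The 15 were the 11 that fell and Sema3f, Plxnb2, Efna5 and Epha5, whose changes between -0.13 and -0.18 did not pass the test.

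**Figure D1:**
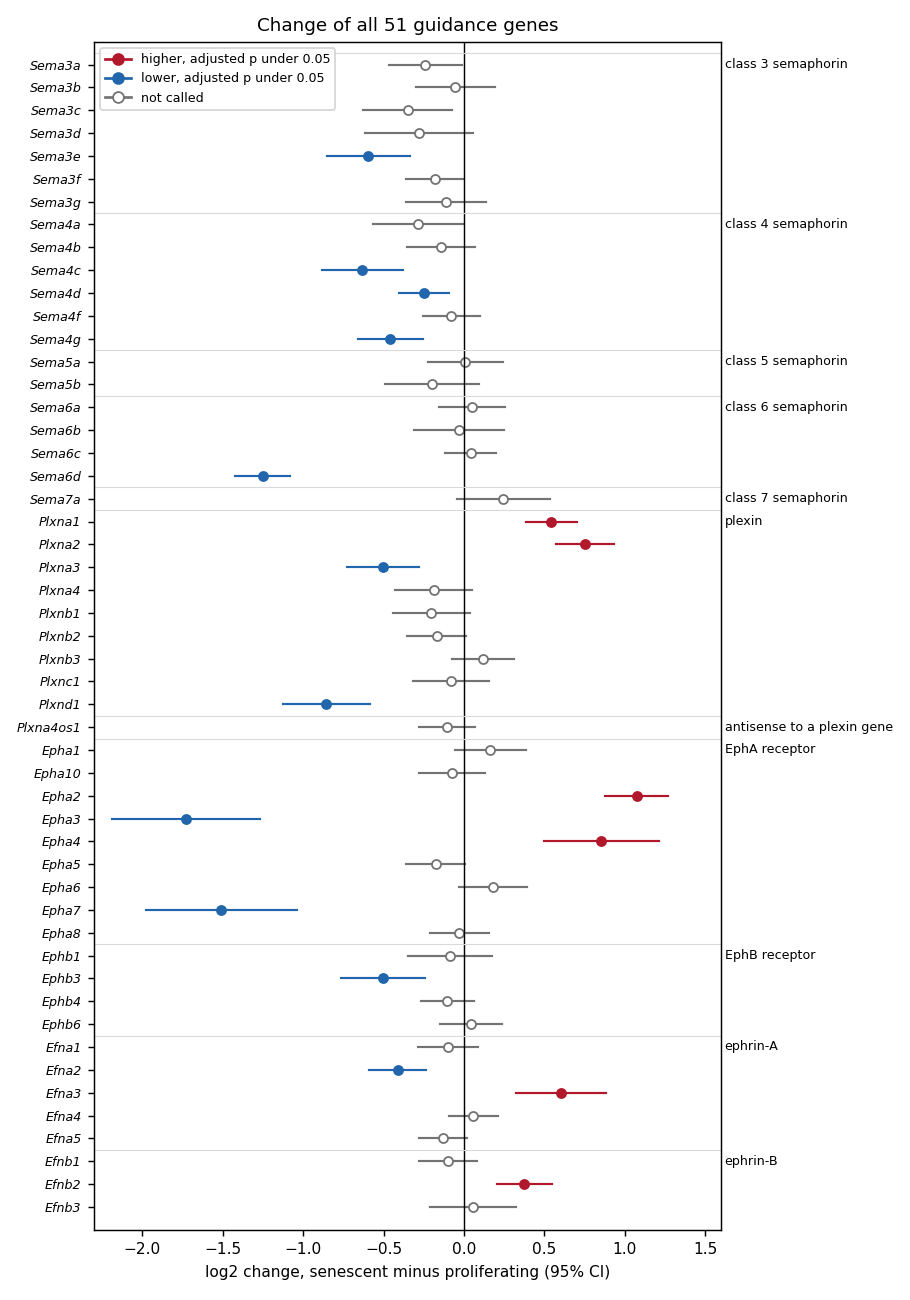
Log2 change, senescent minus proliferating, of the 51 guidance genes by family, with 95% intervals of the limma fit (3 arrays per group). Red marks the 6 genes that rose, blue the 11 that fell and open grey the 34 that did not pass, and no semaphorin is red. Scaling to the poly-A spike-ins would move every point down by 0.60, and Plxna1 and Efnb2 would then lie below 0.

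Of the 20 semaphorins, none rose and 5 fell, namely Sema3e, Sema4c, Sema4d, Sema4g and Sema6d. The 5 were 25% of the family, whereas of all genes 10.5% fell, 9.49% rose and 20.0% passed in either direction. The median change of the family was -0.19 log2 units. Class 4 held 3 of the 5 among its 6 genes, and classes 5 and 7 held none among 2 genes and 1 gene. Semaphorin values of senescent arrays all lay below those of proliferating arrays for 6 genes (30%, beside 19.6% of all genes). They all lay above for none, beside 17.4% of all genes. In refits Sema4f passed as higher with the mean of its probe sets, and Sema7a without proliferating replicate 2.

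Sema6d encodes a membrane semaphorin that binds plexin A1. It read 8.91, 8.99 and 8.81 on the senescent arrays, against 10.20, 10.18 and 10.10 on the proliferating arrays. It fell by 1.25 ± 0.08 log2 units (SE), 2.38-fold, with an adjusted p of 4.8e-05, the smallest among the members. The arrays of each group lay close together, and the gap between the groups was far wider than their spread. The fall rests on that probe set, since the other 3 of the gene lay below background and did not pass.

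Sema3e encodes a secreted class 3 ligand that binds plexin D1 without a neuropilin. It read 8.82, 9.01 and 8.56 on the senescent arrays, against 9.32, 9.39 and 9.46 on the proliferating arrays (change -0.59 ± 0.11, 1.51-fold, adjusted p = 0.00738). The groups did not overlap, and the senescent arrays spread more. All 4 probe sets of Sema3e fell, by 0.42 to 0.67 log2 units.

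Among class 4, membrane semaphorins that include ligands of the plexin Bs, Sema4c, a ligand of plexin B2, had the largest change. It read 6.90, 7.16 and 7.32 on the senescent arrays, against 7.72, 7.72 and 7.84 on the proliferating arrays (change -0.63 ± 0.11, 1.55-fold, adjusted p = 0.00505). Sema4g, another membrane semaphorin, lay close to background, at 5.89, 6.14 and 5.93 on the senescent arrays, against 6.36, 6.51 and 6.46 on the proliferating arrays (change -0.46 ± 0.09, 1.37-fold, adjusted p = 0.00825). For both genes the groups did not overlap.

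Sema4d, the ligand of plexin B1 known from lymphocytes, had the smallest change that passed. Its values were 6.10, 6.03 and 6.12 on the senescent arrays, against 6.36, 6.28 and 6.34 on the proliferating arrays (change -0.25 ± 0.07, 1.19-fold, adjusted p = 0.0355). The call does not hold without any 1 of the 6 arrays (adjusted p from 0.0557 to 0.116), and the mean of its 3 probe sets changed by -0.09 (adjusted p = 0.381).

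The other class 3 genes did not pass. Sema3c, a secreted ligand with roles in heart and vessel development, averaged 12.21 ± 0.19 in senescent and 12.56 ± 0.17 in proliferating cells (SD, n = 3 each), a change of -0.35 with limma's adjusted p = 0.0803. Its other probe set did pass, at 9.14, 8.91 and 8.70 on the senescent arrays, against 9.43, 9.63 and 9.48 on the proliferating arrays (change -0.60, adjusted p = 0.0153 over all probe sets). Sema3a, the classical repellent that acts through neuropilin 1, averaged 10.33 in senescent and 10.57 in proliferating cells, and Sema3d 10.99 in senescent and 11.28 in proliferating cells. Sema3f, which acts through neuropilin 2, averaged 9.54 in senescent and 9.72 in proliferating cells, and 1 of its other 2 probe sets changed by -0.42 and passed. In the mouse gene order Sema3d, Sema3a and Sema3e lie together on chromosome 5, with 0 protein-coding genes between Sema3d and Sema3a and 3 between Sema3a and Sema3e, and only Sema3e of these passed.

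Among the other semaphorins, Sema3b averaged 6.13 in senescent and 6.19 in proliferating cells, Sema4b 7.98 in senescent and 8.12 in proliferating cells, and Sema4f 6.21 in senescent and 6.29 in proliferating cells. A second probe set of Sema4f passed as higher in senescent cells, but both its group means lay below background. Of class 6, Sema6a, a ligand of plexins A2 and A4, averaged 6.76 in senescent and 6.71 in proliferating cells, Sema6b 6.03 in senescent and 6.06 in proliferating cells, and Sema6c 8.05 in senescent and 8.01 in proliferating cells. For these 6 genes the lowest bound of the 95% intervals of the change was -0.353 (Sema4b) and the highest 0.255 (Sema6a). Sema7a, a lipid-anchored ligand of integrin beta 1 and plexin C1, was above background on all 3 senescent arrays and on 1 proliferating array (means 5.85 in senescent and 5.61 in proliferating cells). Sema3g, Sema4a and Sema5a lay below background on all arrays, and Sema5b lay above it on 1 proliferating array.

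Of the 9 plexins, Plxna1 and Plxna2 rose and Plxna3 and Plxnd1 fell, and the median change was -0.17. Each direction held 22.2% of the plexins, beside 9.49% higher and 10.5% lower among all genes. Plxna2, a receptor for class 6 and, with neuropilins, class 3 semaphorins, read 8.78, 8.82 and 8.61 on the senescent arrays, against 8.03, 7.93 and 8.00 on the proliferating arrays. It rose by 0.75 ± 0.08 log2 units, 1.68-fold, with an adjusted p of 0.000513. All 4 of its probe sets rose, by 0.45 to 0.89, and no senescent array of any of them lay below a proliferating one. Plxna1, a receptor for Sema6d and, with neuropilin 1, for Sema3a, read 10.09, 10.06 and 10.07 on the senescent arrays, against 9.46, 9.54 and 9.60 on the proliferating arrays (change 0.54 ± 0.07, 1.46-fold, adjusted p = 0.00122). Its other probe set, close to background, changed by 0.01.

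Plxnd1, the receptor of Sema3e known from blood vessel patterning, moved the same way as its ligand. Not every pair did so, since Plxna1 rose while its ligand Sema6d fell, and Epha2 rose while its ligand Efna1 did not pass. Plxnd1 read 7.36, 7.22 and 7.18 on the senescent arrays, against 8.37, 7.96 and 7.99 on the proliferating arrays, and it fell by 0.86 ± 0.12 log2 units (1.81-fold, adjusted p = 0.00174). Plxna3, a receptor for Sema3f together with neuropilin 2, read 7.64, 7.41 and 7.65 on the senescent arrays, against 8.20, 8.05 and 7.95 on the proliferating arrays (change -0.50 ± 0.10, 1.42-fold, adjusted p = 0.008). For Plxnd1 and Plxna3 every senescent array lay below every proliferating one.

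Of the plexins that did not pass, Plxnb2, a receptor of Sema4c, had a mean of 11.44 ± 0.09 in senescent and 11.62 ± 0.08 in proliferating cells (SD, n = 3 each) and a change of -0.17 with a 95% interval from -0.35 to 0.01. Plxnb1, the receptor of Sema4d, averaged 7.52 in senescent and 7.72 in proliferating cells. Its second probe set fell by 0.49 and lay below background on all senescent arrays, so that it was at least 1.24-fold lower there (adjusted p = 0.0148 over all probe sets). Plxna4, a receptor of Sema6a, averaged 6.66 in senescent and 6.84 in proliferating cells, and its second probe set changed by -0.40 and passed. Plxnb3 averaged 7.30 in senescent and 7.18 in proliferating cells. Plxnc1, the receptor of Sema7a, lay below background, as did Plxna4os1.

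Of the 13 Eph receptors, Epha2 and Epha4 rose and Epha3, Epha7 and Ephb3 fell. These were 15.4% higher and 23.1% lower, beside 9.49% and 10.5% of all genes. The largest changes of all members in both directions were in this family. Epha2, a receptor of ephrin-A1 found in many epithelia, read 10.76, 10.80 and 10.66 on the senescent arrays, against 9.78, 9.53 and 9.68 on the proliferating arrays. It rose by 1.07 ± 0.09 log2 units, 2.11-fold, with an adjusted p of 0.000144, and the groups were separated by more than their spread. Epha2 has 1 probe set on the array, so no second one bears on it.

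Epha4, which binds ephrins of both classes, read 10.57, 10.65 and 10.33 on the senescent arrays, against 9.31, 9.81 and 9.87 on the proliferating arrays (change 0.85 ± 0.16, 1.81-fold, adjusted p = 0.00626). Of its 5 probe sets 4 rose, by 0.84 to 1.21. The fifth changed by 1.16 with an adjusted p of 0.0648, since its senescent values of 7.53, 6.65 and 6.14 and its proliferating values of 5.57, 5.21 and 6.06 were widely spread. Senescent replicate 1 was the highest array for 4 of the 5 probe sets.

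Epha3, a receptor of ephrin-A5, had the largest change of all 51 genes. It read 6.52, 6.74 and 5.92 on the senescent arrays, against 7.87, 8.24 and 8.25 on the proliferating arrays, and fell by 1.73 ± 0.20 log2 units (3.31-fold, adjusted p = 0.000829). The lowest senescent array lay close to background, and its group had the wider spread. A second probe set read 4.71, 4.63 and 4.53 on the senescent arrays, all below background, against 5.95, 6.42 and 6.47 on the proliferating arrays, at least 1.64-fold lower (adjusted p = 0.00037 over all probe sets). The third passed as lower with both group means below background, and the fourth, also below background, did not pass.

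Epha7, also a receptor of ephrin-A5, read 7.15, 7.18 and 7.04 on the senescent arrays, against 8.09, 8.97 and 8.84 on the proliferating arrays (change -1.51 ± 0.20, 2.85-fold, adjusted p = 0.00163). The senescent arrays were close together and proliferating replicate 1 lay lower than the other proliferating arrays. Without that array the change was -1.78. Of its 4 probe sets 3 fell. Ephb3, a receptor of ephrin-B proteins known from the ordering of cells in intestinal crypts, read 9.38, 9.47 and 9.58 on the senescent arrays, against 9.73, 10.11 and 10.09 on the proliferating arrays (change -0.50 ± 0.11, 1.42-fold, adjusted p = 0.0166). The groups did not overlap, but the call was lost without senescent replicate 1 (adjusted p = 0.0648), senescent replicate 2 (0.0599), proliferating replicate 2 (0.0522) or proliferating replicate 3 (0.0584).

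Ephb4, the receptor of ephrin-B2 on veins, averaged 8.32 ± 0.05 in senescent and 8.43 ± 0.07 in proliferating cells (SD, n = 3 each), and its change of -0.10 had a 95% interval from -0.27 to 0.06. Epha1 averaged 5.92 in senescent and 5.75 in proliferating cells, and Epha10 6.02 in senescent and 6.10 in proliferating cells. Epha5, Epha6 and Epha8, receptors known mainly from the nervous system, lay below background on all 6 arrays, as did Ephb1 and Ephb6, of which Ephb6 lacks kinase activity. Epha6 and Epha3 lie on chromosome 16 with 4 protein-coding genes between them.

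**Figure D2:**
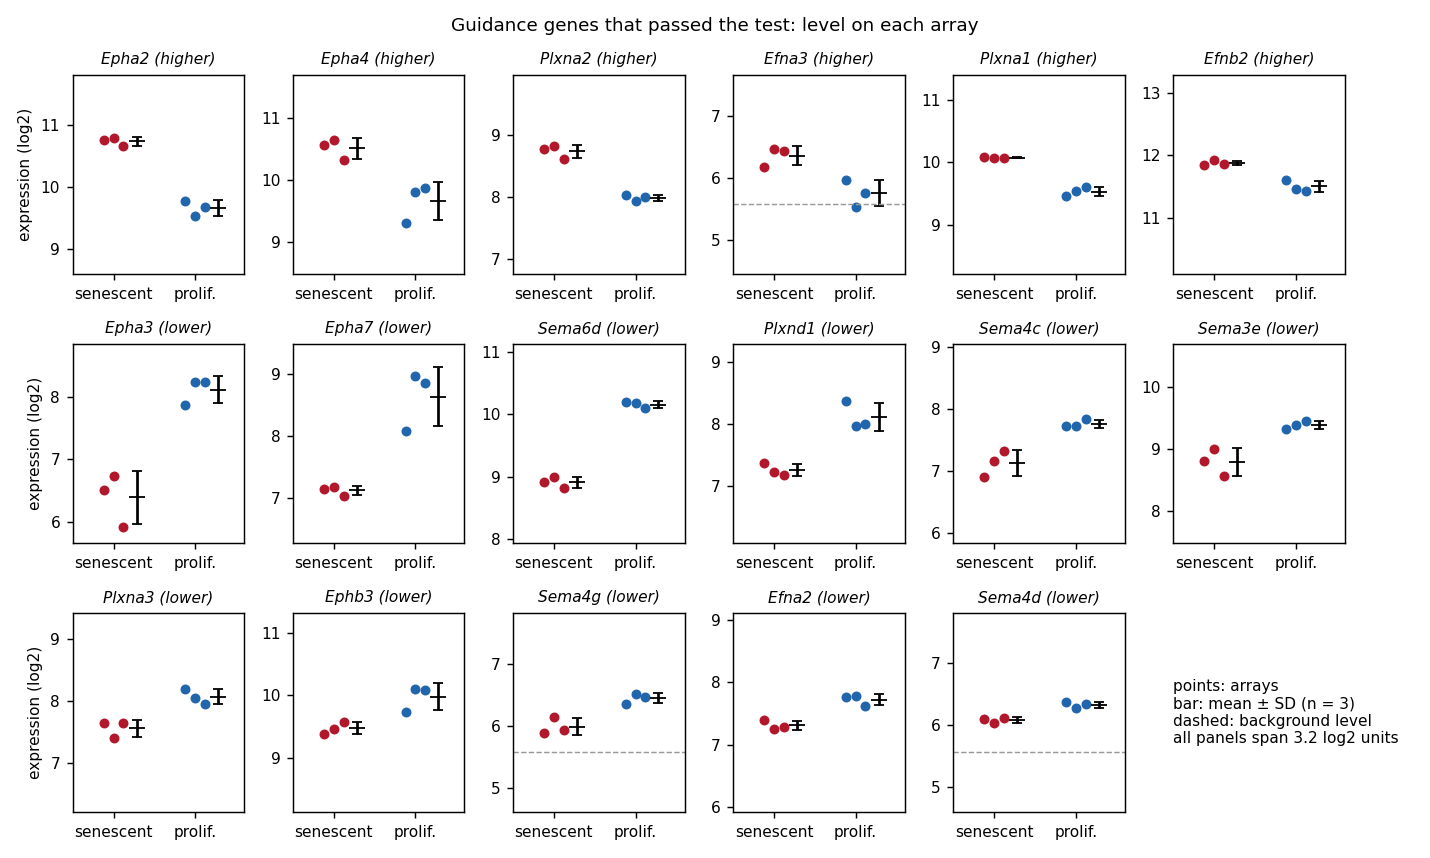
Log2 level on each array of the 17 guidance genes that passed the test, senescent arrays on the left and proliferating arrays on the right of each panel, with the mean and SD as bars and the background level dashed. Each panel spans the same range of log2 units. In all 17 the groups do not overlap, which picking genes by a test on these same values favours. Of all genes, 17.4% did not overlap with senescent arrays higher and 19.6% with senescent arrays lower. Under spike-in scaling the changes of Plxna1 and Efnb2 were -0.05 and -0.22 and did not pass.

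Of the 8 ephrins, Efna3 and Efnb2 rose and Efna2 fell. These were 25% higher and 12.5% lower, beside 9.49% and 10.5% of all genes. Efnb2 encodes ephrin-B2, a membrane ligand of Ephb4 that marks arteries. It read 11.85, 11.92 and 11.87 on the senescent arrays, against 11.61, 11.47 and 11.44 on the proliferating arrays (change 0.38 ± 0.07, 1.30-fold, adjusted p = 0.009). The groups did not overlap. Of its 4 probe sets 2 rose, and the other 2 changed by 0.30 and 0.08 without passing.

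Efna3, a lipid-anchored ligand of EphA receptors, lay close to background, at 6.18, 6.46 and 6.43 on the senescent arrays, against 5.96, 5.54 and 5.75 on the proliferating arrays (change 0.60 ± 0.12, 1.52-fold, adjusted p = 0.00986). Proliferating replicate 2 lay just below background. The second probe set of Efna3 rose too, and since all its proliferating arrays lay below background it was at least 1.19-fold higher in senescent cells. Efna2, of the same class, read 7.39, 7.26 and 7.28 on the senescent arrays, against 7.76, 7.78 and 7.62 on the proliferating arrays (change -0.41 ± 0.08, 1.33-fold, adjusted p = 0.0072), whereas its other probe set changed by -0.07 and did not pass.

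Efna1, the ligand of Epha2, averaged 6.40 in senescent and 6.50 in proliferating cells, and Efna4 averaged 6.85 in senescent and 6.79 in proliferating cells. Efna1, Efna3 and Efna4 are direct neighbours on chromosome 3, and only Efna3 passed. Efna5, a ligand of Epha3 and Epha7, averaged 9.67 ± 0.04 in senescent and 9.80 ± 0.02 in proliferating cells (SD, n = 3 each), and its 3 senescent arrays all lay below the proliferating ones, but the change of -0.13 did not pass (limma's adjusted p = 0.213). Efnb1 averaged 8.95 in senescent and 9.05 in proliferating cells, and Efnb3 averaged 6.57 in senescent and 6.52 in proliferating cells.

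Several members were measured more than once on the array. Of the 34 members with more than 1 probe set, 12 passed, and 7 of these had a further probe set that passed in the same direction. No gene had probe sets that passed in opposite directions. For the other 5, namely Sema4d, Sema6d, Plxna1, Plxna3 and Efna2, no other probe set passed. Another 5 genes, Sema3c, Sema3f, Sema4f, Plxna4 and Plxnb1, passed on a probe set other than the one read, and all but Sema4f were lower in senescent cells there. Averaging the probe sets of a gene made some changes smaller by more than 1.5-fold while they still passed. It gave -0.39 for Sema6d, -0.99 for Epha3, -0.97 for Epha7, -0.24 for Efna2 and 0.28 for Plxna1.

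**Figure D3:**
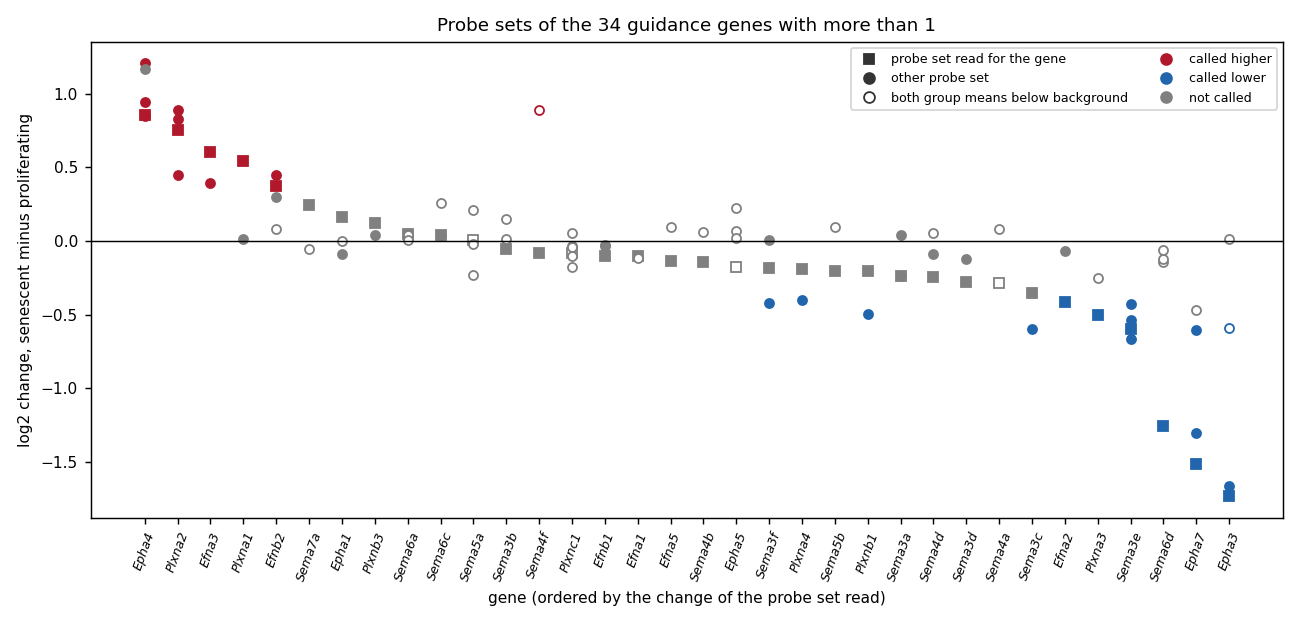
Log2 change, senescent minus proliferating, of every probe set of the 34 guidance genes with more than 1. Squares are the probe sets read for the gene, circles the others, open symbols those with both group means below background, and colours the calls of a fit over all probe sets, in which the probe set read for Sema4d (adjusted p = 0.0678) did not pass. The 4 probe sets of Plxna2 all lie above 0 and the 4 of Sema3e all below. Spike-in scaling would move every point down by 0.60.

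All changes are relative to the other genes on the arrays. When arrays were scaled to 24 poly-A spike-in probe sets instead, the median of all genes moved to -0.60 log2 units, since the spike-ins averaged 11.21 on the senescent and 10.61 on the proliferating arrays (exact two-sided permutation p = 0.1, the smallest that 3 against 3 allows). On that scale Epha2 alone of the members was higher and passed (0.48, adjusted p = 0.0223), Plxna1 (-0.05, adjusted p = 0.798) and Efnb2 (-0.22, adjusted p = 0.284) changed sign without passing, and 44 members were lower and passed, as did 15146 of all genes, with 175 higher. The spike-in difference of 0.60 ± 0.17 (SE) is shared by every gene, so the calls on that scale are not separate findings. Their adjusted p-values, that of Epha2 included, do not allow for this shared error. Such a scaling shifts every gene alike, so places relative to the median of all genes, with 16 of 51 members above it, are fixed by its construction. Centring the arrays on the median of mid-level genes left 6 members higher and 10 lower, while the share of higher genes among all that passed was 63.2%, beside 47.4% as deposited.

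Promoter letters are printed for 5 genes that carry the changes above: Epha2 and Epha3, the largest rise and fall, Sema3e and Plxnd1, a ligand and its receptor that both fell, and Sema6d, whose window holds a searched motif. They are the 100 bases before the annotated start from RefSeq (mouse build GRCm38.p6), written in the direction of transcription, with the motif CACGTG in capitals.
Epha2, chr4:141301121-141301220, plus strand: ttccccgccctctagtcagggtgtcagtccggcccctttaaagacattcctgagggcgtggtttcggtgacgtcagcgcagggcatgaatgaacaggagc
Epha3, chr16:63864176-63864275, minus strand: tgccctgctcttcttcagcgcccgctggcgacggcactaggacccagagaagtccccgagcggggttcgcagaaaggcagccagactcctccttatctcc
Sema3e, chr5:14025176-14025275, plus strand: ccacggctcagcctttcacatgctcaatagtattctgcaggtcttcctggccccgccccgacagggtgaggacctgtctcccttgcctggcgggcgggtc
Plxnd1, chr6:115995006-115995105, minus strand: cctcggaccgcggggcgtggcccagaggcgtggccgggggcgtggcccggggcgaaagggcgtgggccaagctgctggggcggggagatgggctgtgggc
Sema6d, chr2:124089869-124089968, plus strand: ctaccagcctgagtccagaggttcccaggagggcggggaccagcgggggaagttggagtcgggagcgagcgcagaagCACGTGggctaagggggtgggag

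Windows of 250 bases before the start were held for 44 of the members, 16 of them among the 17 that passed, as 58 windows. Both strands were searched for the p53 response element, a pair of half-sites of 10 bases with 0 to 13 bases between them, and for the E-box CACGTG. The full element was in 0 of 58 windows, beside 21 of 32851 windows of all genes (0.0639%), and in 1 of the 2 windows of Cdkn1a. A lone half-site was in 3 windows (5.17%), those of Efna4, Plxna3 and Sema4d, beside 7.13% of all windows. The E-box was in 3 windows (5.17%), those of Epha8, Sema4b and Sema6d, beside 6.02% of all. In Sema6d it begins 23 bases before the start. The windows of the members had a median GC content of 64%, against 52.4% over all windows. A match is a run of letters, and the lack of one says only that these letters are not in these windows.

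The partners of these genes were read from 4 lists of genes outside the members, whose counts stand beside 9.49% higher and 10.5% lower among all genes tested. Of 12 genes measured from a list of semaphorin co-receptors and other surface proteins, 4 rose and 3 fell (median 0.04 log2 units). Met, the hepatocyte growth factor receptor that associates with plexin B1, averaged 11.40 ± 0.03 in senescent and 12.39 ± 0.13 in proliferating cells (SD, n = 3 each) and fell by 0.98 (limma's adjusted p = 0.000194). Sdc3, a cell-surface proteoglycan, averaged 9.43 in senescent and 8.88 in proliferating cells and rose by 0.55. Chl1, an adhesion molecule, passed as lower and Havcr2, an immune receptor, as higher in senescent cells, both with group means below background. The neuropilins, chosen here after their values were seen, moved apart. Nrp1, the partner for Sema3a, averaged 11.31 in senescent and 11.79 in proliferating cells and fell by 0.47 (adjusted p = 0.00339), and Nrp2, the partner for Sema3f, averaged 9.83 in senescent and 9.46 in proliferating cells and rose by 0.37 (adjusted p = 0.0176), a call lost without any of 4 arrays (senescent replicates 1 and 2, proliferating replicates 2 and 3). Itgb1, named on the same footing, rose by 0.30, and its call was lost without any of 5 arrays, all but proliferating replicate 2.

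Of 29 genes of plexin and semaphorin signalling, 8 rose and 1 fell, with a median change of 0.11. Above background on all arrays lay 28 of them. Of the 12501 genes with means above background, 1591 rose and 1839 fell. Rnd1, whose protein binds plexins, averaged 10.29 ± 0.10 in senescent and 9.28 ± 0.25 in proliferating cells (SD, n = 3 each) and rose by 1.02 (limma's adjusted p = 0.00111). Farp2, an exchange factor acting with plexin A, rose by 0.68, Myl9, a myosin light chain, by 0.67, and Rras2, a relative of the plexin substrate Rras, by 0.63. Mical1, an oxidase of actin that binds plexin A, fell by 0.48 and is named after its values were seen. Rras itself rose by 0.26 (adjusted p = 0.0416), a call lost without any 1 of 5 arrays, all but senescent replicate 2.

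Of 28 genes of Eph and ephrin signalling, 2 rose and 2 fell, no more than the shares over all genes, with a median of 7.8e-05. Src, the kinase engaged by ephrin-B, averaged 9.12 in senescent and 8.43 in proliferating cells and rose by 0.69 (adjusted p = 0.000624), and the kinase gene Abl2 rose by 0.48. Pdzrn3, a ubiquitin ligase with PDZ domains, averaged 8.37 in senescent and 9.61 in proliferating cells and fell by 1.25 (adjusted p = 0.000307). Abl1 fell by 0.31, a call lost without senescent replicate 1 or proliferating replicate 2. Of 25 netrin, Slit and repulsive guidance molecule genes, 3 rose and 2 fell (median 0.02). Slit2 and Slit3, secreted ligands of Robo receptors, fell by 0.97 and 1.21. Srgap3 and, named after its values were seen, Srgap1, GTPase-activating proteins of Slit-Robo signalling, rose by 0.81 and 0.37, and the netrin receptor gene Unc5b rose by 0.45. Averaged over their probe sets, Pdzrn3 changed by -0.63, Srgap3 by 0.46 and Sdc3 by 0.36, and all 3 still passed, whereas Srgap1 (0.24), Nrp2 (0.15) and Abl1 (-0.13) did not. Farp2 changed by 0.40 and passed when read without probe sets that may bind several transcripts. Spike-in scaling, which lowers every change by 0.60, was not tested on these lists.

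**Figure D4:**
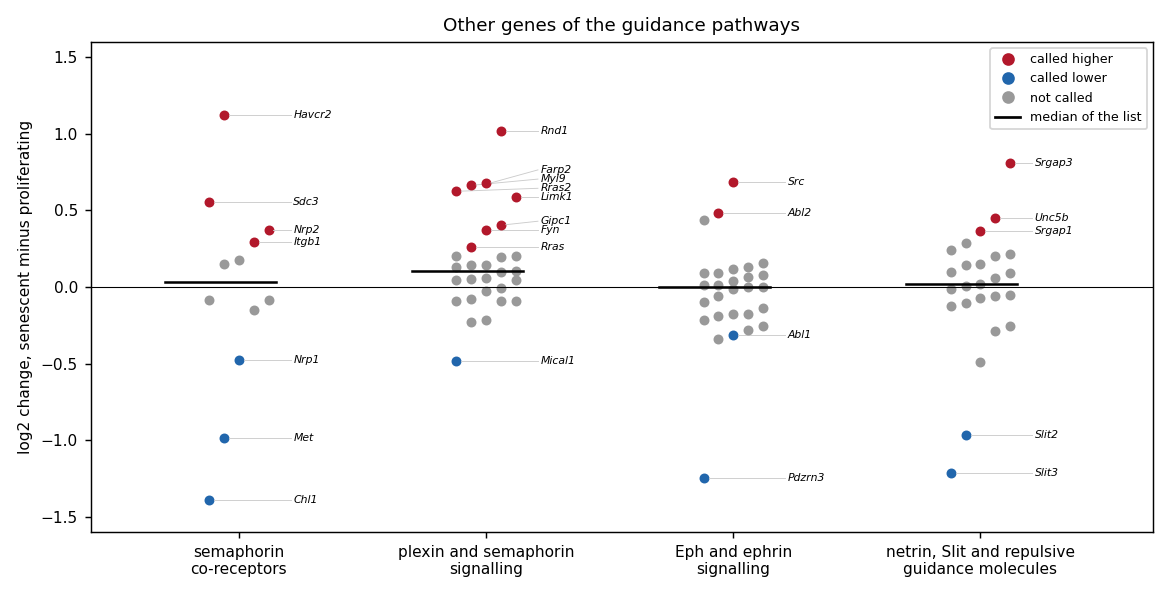
Log2 change, senescent minus proliferating, of each gene in 4 lists of partners of the guidance genes, with a bar at the median of each list. The medians lie between 7.8e-05 and 0.11, and of 29 genes of plexin and semaphorin signalling 8 rose and 1 fell, beside 9.49% higher and 10.5% lower of all genes. Spike-in scaling would move every point down by 0.60.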

How the data were processed

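RNA extracted with Trizol and labelled with biotin was hybridised to Affymetrix arrays, 3 senescent and 3 proliferating, per the labels' protocols. The deposited log2 values per probe set were made by the authors with RMA, per the submitters' processing notes. The method corrects background, brings the arrays to a common distribution and summarises probes, so a shift shared by most genes is removed and changes of dim probe sets are compressed. Its version, scan dates and batches are not stated in the labels, and the number of arrays limits the precision.

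From those values each gene was read from its brightest probe set and updated by Entrez number to symbols of a RefSeq table (34754 of the 34958 probe sets with 1 symbol). Probe sets with several symbols (932) or not listed with a gene (9211), among them 64 controls, were not named. Genes were compared as senescent minus proliferating with limma 3.58.1 under R 4.3.3, using lmFit and eBayes (4 residual and 4.21 prior degrees of freedom), with Benjamini-Hochberg adjustment over 18194 genes. The fit was tested on simulated data. A gene below background on all arrays of 1 group has its fold given as a bound, the brighter group's mean against background. Probes have no stated genome build, so coordinates are given only for RefSeq promoter windows. Plots used Python 3.11.15 and matplotlib 3.10.9.

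The members and the lists were chosen with earlier results of these data known. Every member that passed is named with its arrays, members above background on all arrays with group means, the rest without a test statement, up to 4 genes per partner list by size of change, and Cdkn1a once. Alternatives covered the probe sets per gene, probe set type, variance model, background filter, scaling, replicate block and each array left out.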

Additional observations from a re-analysis of the deposited data

How the results depend on the processing

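Counts of members and of all genes that passed stayed within 1.5 times under every alternative but spike-in scaling, which gave 1 member higher, 44 lower and 15321 of all genes passing. The calls under spike-in scaling share the same shift and are not separate findings. Without 1 array at a time, 6 to 7 members rose, 9 to 13 fell, 23 to 30 did not overlap and 2433 to 3337 of all genes passed. Among the called members 15 of 17 kept their call in all 11 refits, the exceptions being Ephb3 and Sema4d. Sema4d kept its call in 1 refit and lost it also with an intensity trend (adjusted p = 0.0884) and with median centring (0.118). Of the 34 others, 7 passed in the same direction in at least 1 refit. Among these 7, Sema7a passed as higher without proliferating replicate 2 (0.40, adjusted p = 0.0156). Sema4f turned to 0.41 as the mean of its probe sets and passed as higher (adjusted p = 0.0041). Its second probe set, below background, changed by 0.89 and passed too. The fourth probe set of Epha3 changed by 0.014 and the third of Sema4d by 0.053. Alternatives for the partner lists were added after seeing the data, and as means of their probe sets Nrp2, Limk1, Abl1 and Srgap1 did not pass. The cause of these differences was not tested. The deviations of same-numbered arrays from their group means correlated at 0.094, -0.068 and -0.15, within the range of differently numbered arrays (-0.21 to 0.24). With so few arrays this cannot decide whether the numbers pair the samples. A replicate block gave 6 members higher, 10 lower and 2935 of all genes, and among called members and partners Sema4d (adjusted p = 0.0788) and Rras (0.0854) lost their call. Changes of probe sets near background are compressed, which limits the size given for Efna3, Sema4d and Sema4g. The same holds for Epha3, whose lowest senescent array read 5.92.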
